A study of Mus musculus with 8 samples.

Results

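Imprinted fetal growth genes were followed in hearts of neonatal mice with and without connexin43, the protein of the main gap junction channel of working heart muscle, encoded by Gja1. The 9 genes listed were H19, Igf2, Igf2r, Grb10, Cdkn1c, Plagl1, Mest, Peg3 and Dlk1. Their spots were chosen by annotation, as spots with 1 of these symbols as the single gene symbol, and selected on measured values only in that a spot needed a value on at least 3 arrays of each genotype. Of 19 spots with such a symbol 14 qualified, out of 28704 spots on the array, and 7 of the 9 genes were thereby measured. Cdkn1c had 1 spot, which had no value on any array, and Dlk1 had no spot with its single symbol, so that neither gene has a level here. The genes were listed with earlier results of these data known, and the values below describe them rather than test them as a group.

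Each of 8 two-colour cDNA arrays carried Cy3-labelled cDNA from a pool of 3 whole neonatal hearts, with 4 pools from wildtype C57BL mice and 4 from connexin43 null C57BL mice. The labels name neither the exact neonatal age nor how the null allele was made. On the Cy5 side all arrays shared 1 reference made from tissues of adult mice of both sexes, among them brain, heart, kidney, liver and lung. A value is thus the log2 ratio of neonatal heart over this adult mixture, set so that the median spot of each array is 0, and ratios of different spots are not levels that can be ranked against each other. In such bulk samples, fewer cells of a type and less RNA per cell cannot be told apart.

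Imprinted genes are transcribed from only the maternal or only the paternal chromosome, through DNA methylation laid down in the germ line. Many act on growth before birth: paternally expressed genes such as Igf2, Mest, Peg3, Plagl1 and Dlk1 tend to promote it, and maternally expressed genes such as H19, Igf2r, Grb10 and Cdkn1c tend to restrain it. In most mouse tissues, heart included, the transcripts of this set are abundant in the fetus and are turned down after birth.

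Several of these transcripts carry microRNAs, and those are shown here because the H19 RNA, 1 of the members with an unadjusted p under 0.05 below, is itself the precursor of miR-675. Mature microRNAs were not measured here. In the RefSeq annotation of GRCm38.p6, 3 of the listed genes span a microRNA gene with mature sequences, written 5′ to 3′ with the seed, bases 2 to 8, in capitals.
mmu-miR-675-5p (in H19, chr7:142577112-142577133, minus strand): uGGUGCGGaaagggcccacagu
mmu-miR-675-3p (in H19, chr7:142577078-142577099, minus strand): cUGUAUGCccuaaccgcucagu
mmu-miR-483-5p (in Igf2, chr7:142654968-142654989, minus strand): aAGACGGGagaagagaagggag
mmu-miR-483-3p (in Igf2, chr7:142654932-142654952, minus strand): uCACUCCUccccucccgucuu
mmu-miR-335-5p (in Mest, chr6:30741314-30741336, plus strand): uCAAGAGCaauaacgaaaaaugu
mmu-miR-335-3p (in Mest, chr6:30741354-30741375, plus strand): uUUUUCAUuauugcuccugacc
The 6 seeds all differ from each other. H19 and Igf2 are close neighbours on chromosome 7, with 2 other annotated genes between them, 1 of which is the microRNA gene Mir675 inside H19.

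The arrays held a value at 12971 to 23929 of the spots, fewest on wildtype replicate 1, and their number limits the precision of every difference. Gja1 separated the genotypes as labelled, with log2 ratios of 0.79 to 1.31 in wildtype and -0.29 to 0.25 in null hearts (exact two-sided permutation p = 0.0286, the smallest value this design allows). Its difference of -0.95 (SE 0.15) ranked 2 of all features and still had an adjusted p of 0.340 in limma, and whether its spot lies in the stretch removed from the null allele could not be told. Spots of heart muscle markers had a median ratio of 0.32 to 0.76 on the 8 arrays, against -3.06 to -1.96 for genes of the other tissues of the reference; these values set the direction of the ratio and are no separate check of the tissue.

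Most of the listed genes gave ratios far above the array median. Of 107 values at the 14 spots, 76 lay in the top 1% of their array and 89 in the top 5%. All 8 values of Mest, Grb10 and Igf2r lay in the top 1%, and so did 37 of 38 of H19, 7 of 8 of Plagl1, 7 of 16 of Igf2 and 1 of 21 of Peg3. The genes were listed with these ratios known, so the counts are a description.

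**Figure D1:**
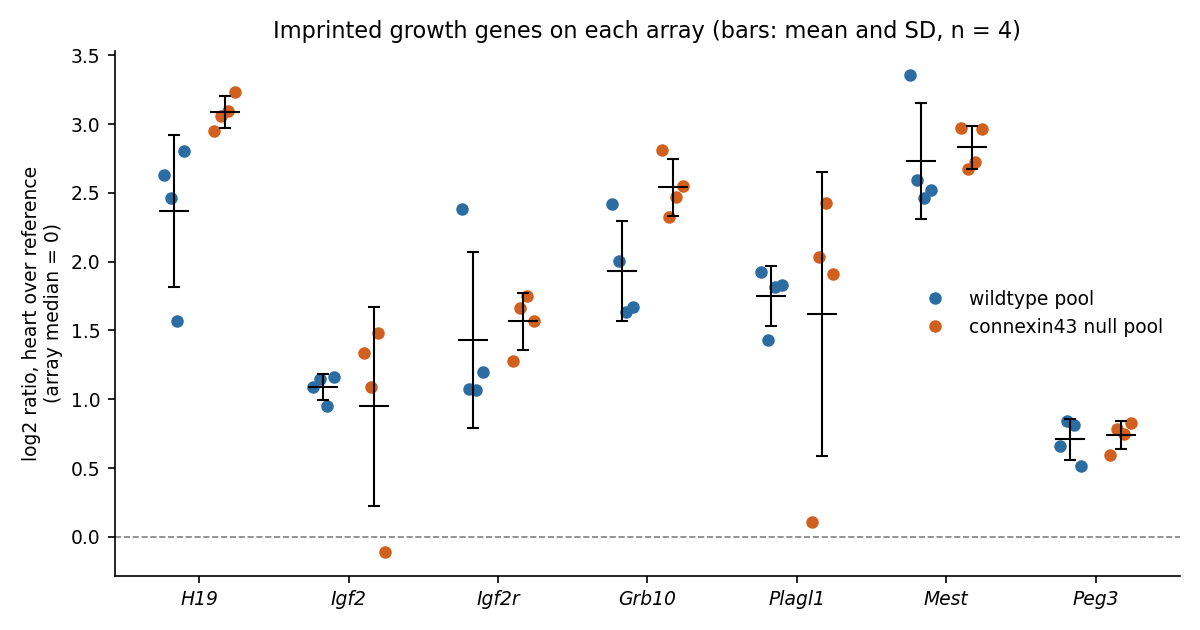
Log2 ratio of neonatal heart over adult reference (y axis, array median at 0) of each measured gene on each array, with wildtype pools in blue and connexin43 null pools in orange; horizontal marks and bars are the mean and SD of 4 arrays. The 4 null values of H19, 2.95 to 3.23, lie above its 4 wildtype values, 1.57 to 2.81, and single null arrays stand low for Igf2 (-0.11) and Plagl1 (0.11).

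Between genotypes, none of the 7 measured genes passed. In the limma fit across 11804 features 0 were called at an adjusted p of 0.05, a percentage called of 0, and 972 had an unadjusted p under 0.05. H19 and Grb10 were the members below that unadjusted threshold, both with higher values in null hearts, where 2.1% of all features were below it and higher and 6.13% below it and lower. Without centring of the arrays the split over all features was more one-sided, with 28 of 1392 such features higher, against 248 of 972. Values were higher in null hearts for 5 members and lower for 2, with a median difference of 0.10, against -0.04 and 40.9% with higher values over all features; of the 5, Igf2r, Mest and Peg3 were lower without centring, and Mest and Peg3 also after quantile normalization and equal spread. Genotypes did not overlap for 1 member, H19, where 2% of all features stood apart with higher and 5.54% with lower null values.

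H19 encodes a long noncoding RNA that is expressed from the maternal chromosome and limits fetal growth. Averaged over its 5 spots, its log2 ratio was 2.63, 2.46, 1.57 and 2.81 on wildtype replicates 1 to 4 and 2.95, 3.06, 3.09 and 3.23 on null replicates 1 to 4. All null values thus lay above all wildtype values, the null pools lay close together, and wildtype replicate 3 was lowest. The means were 2.37 ± 0.55 in wildtype and 3.09 ± 0.12 in null hearts (SD, n = 4 each), a difference of 0.72 (SE 0.23, 95% interval 0.22 to 1.22, 1.65-fold) with an adjusted p of 0.553 in limma. The exact two-sided permutation test gave an unadjusted p of 0.0286, again the smallest possible, and by limma's p-value H19 ranked 183 of 11804. Because H19 was listed with earlier results of these data known, its p-values and interval are descriptive.

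The 5 H19 spots all had higher means in null hearts, by 0.44 to 1.01, and 3 of them, 2919, 26813 and 28686, separated the genotypes without overlap. At spot 2919 the highest wildtype value was 2.9062 and the lowest null value 2.9105, with no value on null replicate 3. Spot 26813 had no value on wildtype replicate 3, the lowest array for H19. The share of all single spots that stood apart was not counted, so the count of 3 only describes these spots. Over all features, 2% stood apart with higher null values. Spot 28686 gave the largest difference, with 0.75 on wildtype replicate 3 against 2.29 to 2.76 on the other wildtype arrays and 3.02 to 3.34 in null hearts. At spot 8844, which gave the smallest, wildtype replicate 1 read 3.33 and was above all null values, 2.80 to 3.08. Spots 2919 and 26813 carry the same clone and serve as a repeat measurement: on the 6 arrays where both had a value they differed by 0.04 to 0.25, with a median of 0.14. Spots of the gene share their RNA pools and are not replicates of the genotype. The difference was 0.45 without wildtype replicate 3 (adjusted p = 0.627) and 0.37 after quantile normalization of the arrays (adjusted p = 0.707). The genotypes stayed apart when arrays were centred within blocks and overlapped without centring, after quantile normalization and after scaling to equal spread, where for instance the highest wildtype value was 2.84 and the lowest null value 2.61 without centring.

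**Figure D2:**
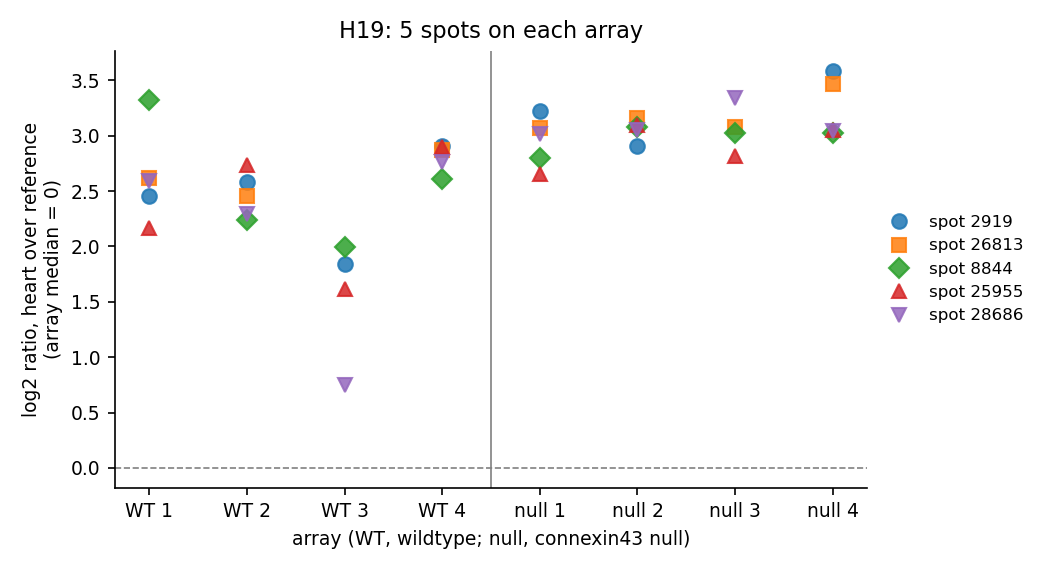
Log2 ratio of heart over reference (y axis, array median at 0) at each of the 5 H19 spots on the 4 wildtype and 4 null arrays (x axis), 1 symbol per spot. Spots 2919 and 26813 carry the same clone; wildtype replicate 3 is low at each spot that has a value there, 0.75 to 1.99, while null arrays read 2.65 to 3.59.

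Igf2 encodes insulin-like growth factor 2, the main growth-promoting ligand of the fetus, expressed from the paternal chromosome next to H19. Its 2 qualifying spots gave unlike ratios. Spot 2669 read 2.58, 2.22, 2.13 and 2.41 on wildtype replicates 1 to 4 and 2.60, 2.34, 2.59 and -0.17 on null replicates 1 to 4. It was thus high on 7 arrays and near the array median on null replicate 4 alone, an array on which H19 had its highest value. Spot 27818 read -0.40 to 0.07 in wildtype and -0.16 to 0.37 in null hearts, close to the array median throughout.

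On spot 2669 the null minus wildtype difference was -0.49 (SE 0.50), and without null replicate 4 it was 0.18 (SE 0.15, adjusted p = 0.790 in limma), with means of 2.33 ± 0.20 (SD, n = 4) in wildtype and 2.51 ± 0.15 (SD, n = 3) in null hearts. Spot 27818 had 0.21 (SE 0.15). The average of both spots, used in the fit across all features, had a difference of -0.14 (SE 0.28, 95% interval -0.76 to 0.49, adjusted p = 0.910), so that a change of either sign of about this size was not detectable. That average turned to 0.21 without null replicate 4. Which of the clones reads the growth factor's transcript could not be told from the files.

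**Figure D3:**
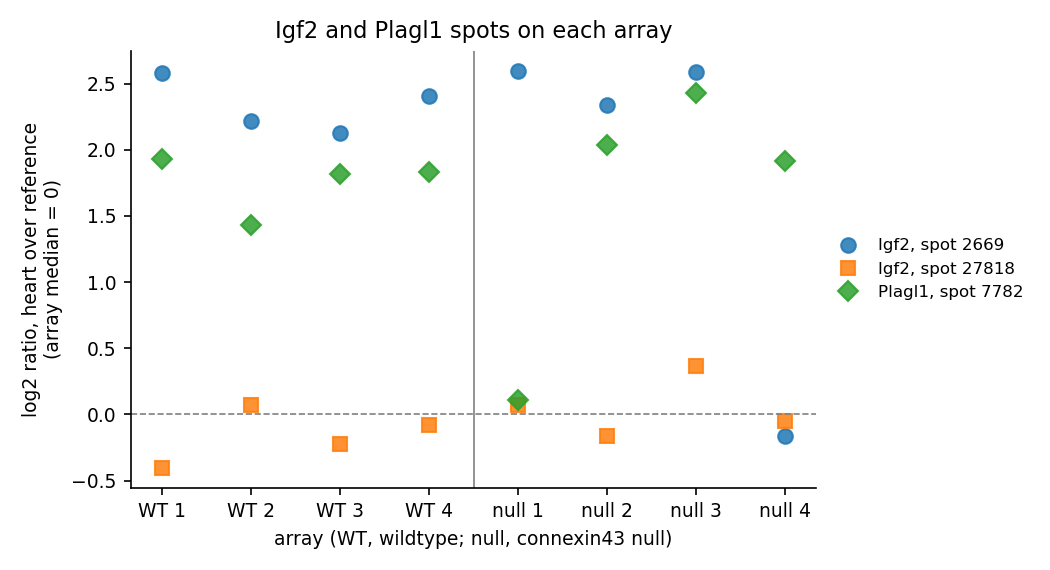
Log2 ratio of heart over reference (y axis, array median at 0) at the 2 qualifying Igf2 spots and the Plagl1 spot on the 4 wildtype and 4 null arrays (x axis). Igf2 spot 2669 is high on 7 arrays and at -0.17 on null replicate 4, Plagl1 is high on 7 arrays and at 0.11 on null replicate 1, and Igf2 spot 27818 stays between -0.40 and 0.37.

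Igf2r encodes the receptor that takes up IGF2 and delivers it to lysosomes, a maternally expressed brake on growth. Its spot read 2.39, 1.07, 1.07 and 1.20 on wildtype replicates 1 to 4 and 1.28, 1.66, 1.75 and 1.57 on null replicates 1 to 4. Wildtype replicate 1 was the highest of all arrays, while each null array was above the other 3 wildtype arrays. The difference was 0.13 (SE 0.26, 95% interval -0.45 to 0.71, adjusted p = 0.904 in limma), and without wildtype replicate 1 it was 0.45 (adjusted p = 0.523).

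Grb10 encodes an adaptor that binds the activated insulin and IGF1 receptors and damps their signal, and is maternally expressed in most tissues. Its log2 ratio was 2.42, 2.00, 1.63 and 1.67 on wildtype replicates 1 to 4 and 2.81, 2.32, 2.47 and 2.55 on null replicates 1 to 4. The groups overlapped through wildtype replicate 1, which lay above null replicate 2. Means were 1.93 ± 0.37 and 2.54 ± 0.21 (SD, n = 4 each), a difference of 0.61 (SE 0.18, 95% interval 0.21 to 1.00, 1.52-fold). It did not pass in limma (adjusted p = 0.550, rank 127), and the exact two-sided permutation p was 0.0571. With each array left out in turn the difference stayed between 0.51 and 0.77, and after quantile normalization it was 0.35. A second Grb10 spot, 14762, fell outside the rule with 2 wildtype and 3 null arrays and spread widely within genotypes, with 0.19 and 1.97 in wildtype and -0.02, -0.45 and 2.61 in null hearts. Averaged in with a limit of 2 arrays per genotype, it brought the difference of the gene to 0.26.

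Plagl1 encodes a zinc finger transcription factor that arrests the cell cycle and is known to act on the Igf2 and H19 locus, expressed from the paternal chromosome. Its spot read 1.93, 1.43, 1.82 and 1.83 on wildtype replicates 1 to 4 and 0.11, 2.03, 2.43 and 1.91 on null replicates 1 to 4. As with Igf2 spot 2669, 1 null array stood far below 7 high ones, but it was another array. The difference was -0.13 (SE 0.40, 95% interval -1.01 to 0.75, adjusted p = 0.942 in limma) and 0.37 without null replicate 1 (adjusted p = 0.630).

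Mest encodes a protein of the alpha/beta hydrolase family and is expressed from the paternal chromosome in mesoderm. Its ratio was 3.36, 2.59, 2.46 and 2.52 on wildtype replicates 1 to 4 and 2.97, 2.67, 2.72 and 2.96 on null replicates 1 to 4. The highest value was again on wildtype replicate 1, and the other 3 wildtype arrays were below all null arrays. Genotype means of 2.73 ± 0.42 and 2.83 ± 0.16 (SD, n = 4 each) differed by 0.10 (SE 0.19, 95% interval -0.32 to 0.51, adjusted p = 0.901 in limma). Without wildtype replicate 1 the difference was 0.31, and quantile normalization turned it to -0.32.

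Peg3, a paternally expressed zinc finger gene linked to growth and maternal behaviour, gave the most even values of the set. Averaged over 3 spots its ratio was 0.66, 0.84, 0.81 and 0.52 on wildtype replicates 1 to 4 and 0.59, 0.79, 0.75 and 0.83 on null replicates 1 to 4. The groups overlapped, with a difference of 0.03 (SE 0.11, 95% interval -0.22 to 0.28, adjusted p = 0.951 in limma). Its 3 spots, each measured on 7 arrays and thus just inside the rule, gave -0.02 to 0.09. Nearest outside it was Grb10 spot 14762, described above. Farther outside were Igf2 spot 27825, with 0.14 on 1 wildtype array and 0.25 to 1.11 on 4 null arrays, and Igf2r spot 1480, with 0.03 on a single array. Igf2 spot 15884 had no value on any array.

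**Figure D4:**
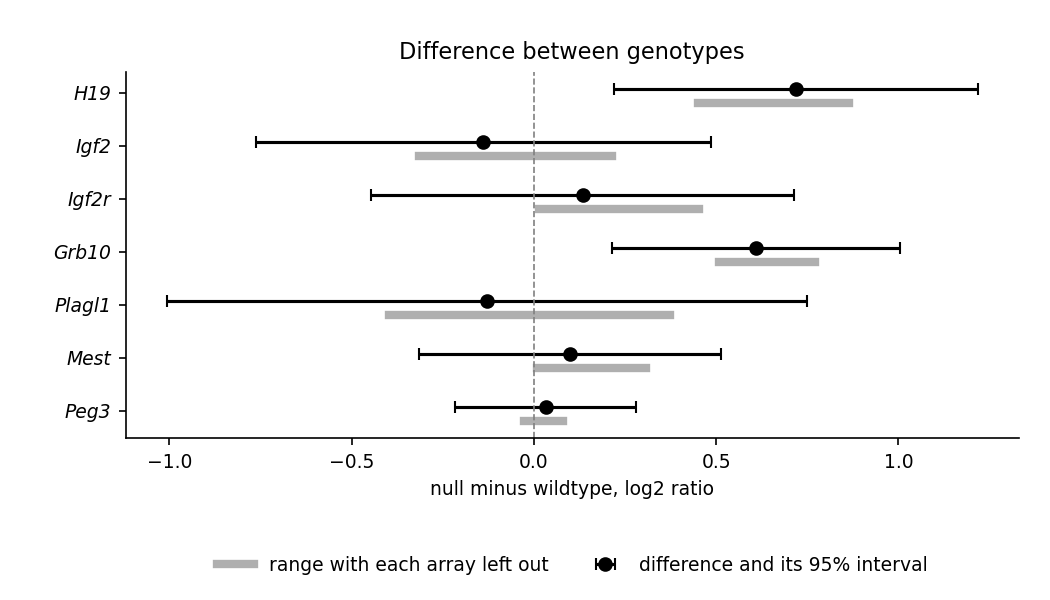
Null minus wildtype difference of the log2 ratio (x axis) for each measured gene, as points with the 95% interval of the limma fit, and grey bars for the range of the difference with each of the 8 arrays left out in turn. H19 (0.45 to 0.87) and Grb10 (0.51 to 0.77) keep their sign in that range, Igf2r and Mest stay above 0, and Igf2, Plagl1 and Peg3 reach both signs.

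Wildtype replicate 1 was the highest of all arrays for Igf2r and Mest and the highest wildtype array for Grb10 and Plagl1. Over all its spots this array also had the widest spread, an SD of 0.61 against 0.43 to 0.60 on the others. It had the lowest weight, 0.243, in the fit with array weights. The part of this spread in the values of the members was not tested. The other arrays that stood apart were wildtype replicate 3, lowest for H19, null replicate 1, lowest for Plagl1, and null replicate 4, lowest for Igf2. Likeness of pattern was measured as the root mean square difference over the 8 arrays between genes centred on their own means, among 5676 other named genes with values on all arrays. The genotype difference stayed in these values, so genes with a like difference, such as H19 and Grb10, come closer through it. These ranks are thus no separate evidence of a shared pattern. For H19 the nearest were Ldb3 (0.22) and Cbx6 (0.23), and of the other members Grb10 came nearest at rank 60 (0.36). Its neighbour Igf2 stood at rank 5460 (0.72), a distance that was 0.39 without null replicate 4, the array with the low value of Igf2 spot 2669. That array was left out after its value was seen, and no rank was taken over the other 7. H19 alone deviated from its own mean by 0.50 over all 8 arrays. Seen from Grb10, Mest was at rank 31 (0.28) and H19 at rank 499, behind Zfp189 and Gramd4 (0.23 each). Igf2r lay nearest to Mllt10 and Hdac7 (0.13 each), with Mest at rank 169 (0.25), and Mest to Ppargc1b (0.09) and Tns2 (0.11). Farsb (0.36) and Avpi1 (0.38) were nearest to Plagl1, Ttc1 (0.32) and Ube2q2 (0.33) to Igf2, and Psme3ip1 (0.04) and Rgs19 (0.04) to Peg3, a measure that favours even genes for an even gene.

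Genes that share an imprinted region with a member were measured too, 10 of the 27 listed. Copg2, which overlaps the end of Mest, had log2 ratios of -0.05, 0.06 and 0.01 on wildtype replicates 2 to 4 and -0.55, -0.46, -0.60 and -0.25 on null replicates 1 to 4. All its null values lay below its wildtype values, with a difference of -0.47 (SE 0.12, adjusted p = 0.519 in limma). Without information on strand, signal of overlapping genes cannot be told apart on double-stranded cDNA spots. Airn, the noncoding RNA that silences the paternal Igf2r, had 0.84 to 0.96 in wildtype and 0.95 to 1.315 in null hearts, a difference of 0.25 (SE 0.11, adjusted p = 0.594) with 0.20 and 0.31 on its 2 spots.

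Beside Peg3, the deubiquitinase gene Usp29 had -0.28 (SE 0.15) over 3 arrays per genotype, without overlap. Meg3, the maternally expressed noncoding RNA beside Dlk1, read 1.37 on wildtype replicate 1 and -0.07 to 0.32 on all other arrays, with a difference of -0.39 (SE 0.265). In the region of H19, Igf2 and Cdkn1c, values were higher in null hearts for 3 of 4 measured genes and lower for 1. Differences were -0.12 at Tssc4, 0.005 at Cd81 (SE 0.11), 0.07 at Nap1l4 (SE 0.10) and 0.51 at Slc22a18 (SE 0.36). Slc22a18 read 1.00 on null replicate 2, against -0.71 to -0.14 on the other null arrays and -1.03 to -0.19 in wildtype. Next to Grb10, Ddc and Cobl had 0.02 (SE 0.18) and -0.15 (SE 0.15). No gene of these regions passed. Copg2 and Usp29 stood apart with lower null values, as did 5.54% of all features. A lack of overlap also comes more easily when a genotype has a value on fewer arrays.

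The wider list of other imprinted genes, which includes those neighbours, had 24 of 56 genes measured, 12 with higher and 12 with lower values in null hearts and a median difference of -0.02. None passed, and Copg2 was the 1 gene with an unadjusted p under 0.05, beside background shares of 2.1% and 6.13% in each direction. After Copg2 and Airn the smallest p-values belonged to Ndn and Xist. Ndn, a paternally expressed gene of neurons and muscle, had -0.28 (SE 0.13). Xist, the RNA of the inactive X chromosome, had -0.28 (SE 0.14). It read 0.08 to 0.12 on wildtype replicates 2 to 4 and -0.39 to 0.11 in null hearts, with overlap. The sex of the pooled hearts was not part of the fit, and its part in the Xist values was not tested.

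Among ligands, receptors and binding proteins of the IGF system, 10 of 20 were measured, with 5 higher, 5 lower and a median of -0.07, and none passed. Igfbp3, which encodes the main carrier of circulating IGFs, read 0.46, 0.20, 0.71 and 0.12 in wildtype and 0.73, 0.93, 0.80 and 0.62 in null hearts, a difference of 0.39 (SE 0.14, adjusted p = 0.558 in limma). The groups overlapped through wildtype replicate 3. Igfbp5, another binding protein gene, had 0.35 (SE 0.15), and Igf1, the ligand of postnatal growth, -0.30 (SE 0.13), with -0.46 and -0.10 on its 2 spots. M6pr, which encodes the smaller mannose 6-phosphate receptor, had -0.56 (SE 0.265), with -1.20 and -0.05 on its 2 spots and -1.31 on null replicate 3.

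Of 30 genes of signalling below the IGF receptors 16 were measured, 8 higher and 8 lower, with a median of -0.0031 and none that passed. Nedd4, a ubiquitin ligase that binds the Grb10 protein, had 0.88 or less in wildtype and 0.92 to 1.14 in null hearts, without overlap, a difference of 0.37 (SE 0.14, adjusted p = 0.564 in limma) and 0.19 to 0.54 on its 4 spots. Like H19, it was lowest on wildtype replicate 3, at 0.28. The adaptor gene Shc1 had 0.17 (SE 0.12) and the ribosomal protein gene Rps6 -0.14 (SE 0.12). The transcription factor gene Foxo1 had -0.25 (SE 0.16), beyond the -0.17 to -0.10 of its 3 spots taken singly. Where spots lack values on some arrays, the average of a gene can fall outside the range of its spots. That of Igfbp3, 0.39, also did, with 0.40 and 0.50 on its 2 spots.

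Cdkn1c itself had no value, but 12 of 15 of its cell cycle partners and relatives were measured, 7 higher and 5 lower, with a median of 0.15. The cyclin genes Ccnd3 and Ccnd2 had 0.36 (SE 0.12) and 0.29 (SE 0.12), each without overlap, but the 6 Ccnd2 spots ranged from 0.01 to 0.62. Ccna2 had 0.31 (SE 0.165). Cdkn1a, a cell cycle inhibitor of the same family as Cdkn1c, had -0.43 (SE 0.13, adjusted p = 0.550 in limma), also without overlap. In the Notch pathway, which the Dlk1 protein is thought to modulate, 7 of 16 genes were measured, between -0.17 (Maml1) and 0.14 (Notch1), with 3 higher and 4 lower. Regulators of imprinting had 8 of 12 measured, 6 higher and 2 lower, with a median of 0.01. Trim28, the corepressor that keeps imprints methylated, had 0.26 (SE 0.11, adjusted p = 0.594) without overlap between genotypes, Uhrf1 0.16 (SE 0.15), Dnmt3a 0.09 (SE 0.10) and the insulator gene Ctcf -0.12 (SE 0.14). In none of these lists did a gene pass over all features. The genes named here have the smallest p-values of their lists, so a lack of overlap between genotypes is no separate evidence for them. Over all features 2% stood apart with higher and 5.54% with lower null values.

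**Figure D5:**
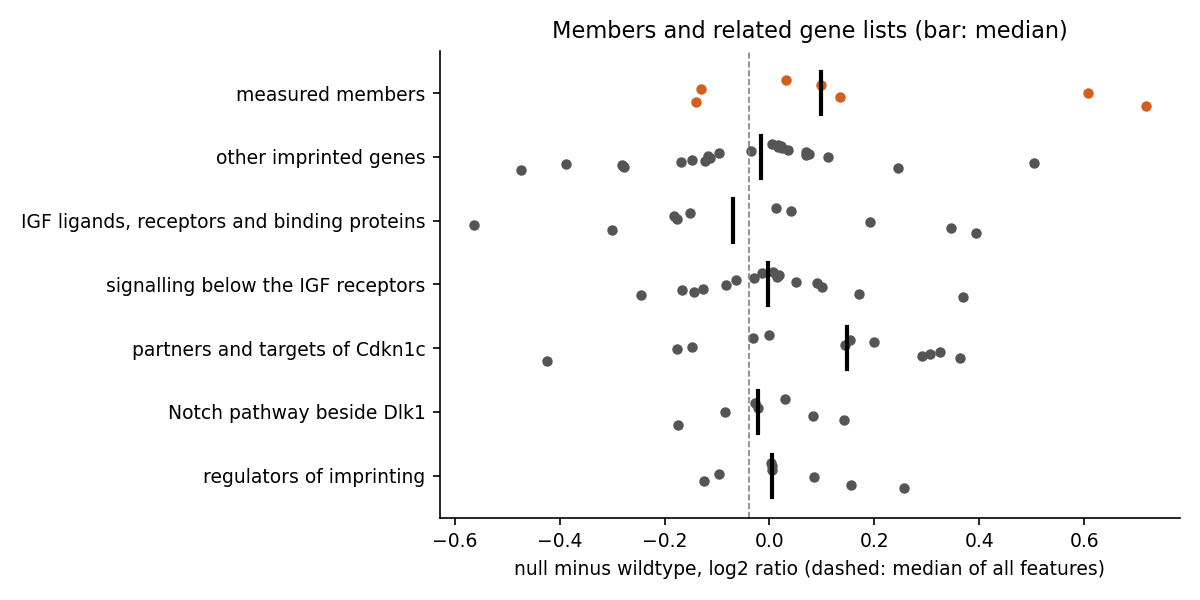
Null minus wildtype difference of the log2 ratio (x axis) for the measured members (orange) and for genes of 6 related lists (grey), 1 point per gene, with black bars at list medians and a dashed line at the median of all features, -0.04. H19 (0.72) and Grb10 (0.61) are the rightmost points; list medians run from -0.07 to 0.15.

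No marker gene of other cell types passed. Endothelial markers had higher values in null hearts for 6 of 7 measured genes, fibroblast markers for 6 of 7 and erythroid markers for 7 of 8, with mean levels that overlapped: 0.40 to 0.92 against 0.64 to 0.79 for endothelial, 0.36 to 0.57 against 0.40 to 0.63 for fibroblast and -0.58 to 0.05 against -0.12 to 0.08 for erythroid genes, wildtype first. The fibroblast list went both ways: its 1 lower gene, Mfap5, had its largest difference, -0.55 (SE 0.215), while Dcn and Col1a2 had 0.02 and 0.07. Cardiomyocyte markers were split, 2 higher and 2 lower (median difference -0.03), as were epicardial markers, 1 and 1, fetal muscle isoforms, 2 and 3, and skeletal muscle markers, 2 and 1, while smooth muscle markers had 1 higher and 3 lower and both macrophage markers were lower. Lung epithelial markers were lower in 3 of 3, at -2.48 to -1.85 in wildtype and -3.18 to -2.82 in null hearts. Of 7 measured fetal liver markers 6 were lower (mean level -1.27 to -0.81 against -1.77 to -1.06); the other, Afp, a fetal transcript like those of the members, read 2.07 to 2.29 in wildtype and 2.33 to 2.59 in null hearts. The albumin gene Alb of the same list was at or below -1.99 on all arrays. The list of other adult tissues of the reference was lower in 7 of 7 (median difference -0.33), but shares Scgb1a1, Sftpc, Apoa1 and Alb with the lung and fetal liver lists. The part of these cells in the differences of H19 and Grb10 was not tested. A mean level leaves out genes with no value on that array, such as Flt1 on wildtype replicate 1 and Cbr2 on null replicate 2. The ranges of mean levels thus also depend on which genes had values.

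As a sequence feature that the choice of genes did not use, the 250 bases before each annotated start were read from the RefSeq promoter table of GRCm38.p6, which matched 7 of the 9 genes with 13 starts. Their median number of CpG dinucleotides was 10, against 6 over all 32851 promoters, and ranged from 1 at an upstream start of Igf2 to 40 at a start of Grb10. The letters TGCCGC, the hexamer that the imprint-keeping protein ZFP57 binds when methylated, occur on either strand in 8.7% of all promoters. They occur in 3 of the 13, at 2 overlapping starts of Mest and at that of Plagl1, shown here with its reverse complement GCGGCA, as it reads on this strand, in capitals.
Mest (chr6:30737800-30738049, plus strand): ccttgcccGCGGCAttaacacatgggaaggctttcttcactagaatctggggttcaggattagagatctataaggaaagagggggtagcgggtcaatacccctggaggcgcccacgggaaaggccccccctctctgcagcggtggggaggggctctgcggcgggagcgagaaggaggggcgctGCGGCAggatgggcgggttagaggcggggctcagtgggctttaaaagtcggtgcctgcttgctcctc
Plagl1 (chr10:13090582-13090831, plus strand): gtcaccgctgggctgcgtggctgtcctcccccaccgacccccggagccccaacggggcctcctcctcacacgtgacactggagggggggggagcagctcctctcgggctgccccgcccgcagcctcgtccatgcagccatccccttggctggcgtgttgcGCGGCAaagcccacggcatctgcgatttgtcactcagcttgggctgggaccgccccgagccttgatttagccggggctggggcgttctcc
A match describes the letters of these windows and not a bound site.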

How the data were processed

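The authors' deposited values are log2 ratios of the 2 dyes per spot, with the same dye orientation on all arrays per the labels. The log base was taken from the values: in 48 blocks of 598 rows, 7497 differences between values equalled, to 1.5e-09, a base 2 logarithm of 1 integer over another (integers to 120), against 266 for base e and 795 for base 10. The direction was taken from heart muscle against other tissue markers. How spots were scanned, corrected for background or scaled is information not given in sources used here. Each array was centred on its median. Spots that share 1 symbol, each measured on 3 or more arrays per genotype, were averaged by a fit of spot and array effects, and null minus wildtype was fitted over all 11804 features with limma 3.58.1 in R 4.3.3 (lmFit, eBayes, Benjamini-Hochberg, threshold 0.05). The scripts were tested on simulated data. Per the labels the replicates are different pools; litters are not named, and the p-values cover only how far pools differ.

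Members and lists were chosen with earlier results of these data known. Named genes are the members, Gja1, up to 4 genes per list by p-value, the 2 genes nearest in pattern to each member and, added after their values were seen, genes of the members' imprinted regions and markers of other tissues. Gene symbols come from the platform annotation, which can be old. Alternatives were no centring, quantile normalization, equal spread, other limits on missing values, single spots, the spot with the fewest missing values, robust eBayes with a trend, array weights, the replicate number as a block and each array left out. Centring within blocks, and the distance of H19 and Igf2 without null replicate 4, were added after seeing the data. Figures were made with Python 3.11.15 and matplotlib 3.10.9.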

Additional observations from a re-analysis of the deposited data

Results flagged for a closer look

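Groups of 4 arrays were screened for Gja1, the members, single spots of H19, Igf2 and Peg3, and up to 4 genes per related list by p-value. In 74 such groups, 9 had 1 array whose gap to the nearest other exceeded Dixon's 95% critical value as a share of the group's range. Chance flags about 1 group in 20. These groups share their arrays, and gene averages stand beside their own spots, so 9 of 74 is no test against that rate. Among members, wildtype replicate 1 was high for Igf2r (2.39, the others up to 1.20) and for Mest (3.36, the others up to 2.59), null replicate 4 was low at Igf2 spot 2669 (-0.17, the others from 2.34), and null replicate 3 was high at H19 spot 28686 (3.34, the others up to 3.05). Among related genes, wildtype replicate 3 was high for Igf1 (-0.42) and low for Ctcf (-0.079), wildtype replicate 4 high for Cdkn1a (0.70), null replicate 1 high for Shc1 (0.29) and null replicate 3 high for Ccna2 (1.46).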

How the results depend on the processing

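Under all alternatives run, 0 features were called and no member passed, with a smallest adjusted p of 0.232 for a member (Grb10, array weights). H19 kept its sign under 23 settings, from 0.37 (quantile normalization) to 1.01 (spot 28686), and Grb10 under 19, from 0.26 (a limit of 2 arrays) to 0.77 (without wildtype replicate 1). Signs of the small differences turned for Igf2r to -0.025 without centring, for Mest to -0.060 without centring, -0.32 with quantile normalization and -0.033 with equal spread, for Plagl1 to 0.22 with array weights, for Igf2 to 0.21 at spot 27818, and for Peg3 to -0.13, -0.012 and -0.039 under those same 3 scalings, to -0.017 with its fewest-missing spot, 4808, and to -0.00098 with centring within blocks. With each array left out the differences ran from -0.32 to 0.21 for Igf2, -0.40 to 0.37 for Plagl1 and -0.029 to 0.080 for Peg3. Without centring the median difference of all features was -0.18, against -0.04. The number below an unadjusted p of 0.05, 972, was 614 over the smaller set of features from spots with values on all 8 arrays. It was 689 to 1024 with each array left out, 1297 with array weights and 1392 without centring. Over single spots, a larger set, it was 1300. Those with higher null values, 248, were 28 without centring and 380 over single spots. Same-numbered arrays were not paired by their deviations (correlations of -0.25 to -0.01), and with the replicate block H19 and Grb10 had adjusted p = 0.787 each, with 0 features called.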
